A study of Mus musculus with 18 samples.

Results

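The 9 genes Ms4a1, Cd79a, Cd79b, Cd22, Pax5, Cr2, Blk, Fcer2a and Ly6d mark B lymphocytes or carry signals from their antigen receptor. They were taken by name from a table of 50584 mouse genes, in which all 9 were found, and were described in RNA from the choroid plexus, which lines parts of the brain ventricles and secretes cerebrospinal fluid. The table holds 18 libraries in 4 groups: MRL/lpr mice aged 12 weeks (6 libraries), MRL/lpr mice aged 16 weeks (6), MRL/+ mice aged 12 weeks (3) and MRL/+ mice aged 16 weeks (3). MRL/lpr mice are homozygous for the lpr allele of the death receptor gene Fas and develop lupus-like autoimmunity; MRL/+ mice share the MRL background, with an intact Fas gene. The labels name no treatment, no sex and no number of animals per library, so each p-value measures the spread between these libraries, which may be technical.

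A B cell recognises antigen with membrane immunoglobulin, which has almost no intracellular part of its own. The paired chains encoded by Cd79a and Cd79b carry the signalling motifs, which Src-family kinases such as Blk phosphorylate so that the kinase Syk can bind. The complement receptor encoded by Cr2 lowers the threshold for a response, Cd22 raises it by recruiting phosphatases, and the transcription factor Pax5 holds the B cell programme in place. Ms4a1 encodes CD20, Fcer2a encodes CD23, the low-affinity receptor for IgE, and Ly6d encodes a small membrane-anchored protein that appears when lymphoid progenitors commit to the B lineage. The healthy choroid plexus is epithelium, stroma, vessels and resident macrophages, with few lymphocytes.

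Promoter sequences of 5 of the 9 genes were found in the RefSeq table for GRCm38.p6, which gives the 250 bases before and the 50 bases after a start site of the reference mouse strain. Of these, 3 are printed, to set a signalling chain and an inhibitory receptor that were called between strains at both ages beside the complement receptor that was not. Each is written 5′ to 3′ in the direction of transcription. Capitals mark matches, on either strand, to 4 motifs of B lineage factors: TCCC and GGGA with 2 bases of any kind between them, the palindrome bound by Ebf1; the octamer ATTTGCAT, bound by Oct proteins; GAGGAA, the core bound by PU.1; and CAGGTG, an E box bound by E2A.
Cd79a, chr7:24897247-24897546, plus strand: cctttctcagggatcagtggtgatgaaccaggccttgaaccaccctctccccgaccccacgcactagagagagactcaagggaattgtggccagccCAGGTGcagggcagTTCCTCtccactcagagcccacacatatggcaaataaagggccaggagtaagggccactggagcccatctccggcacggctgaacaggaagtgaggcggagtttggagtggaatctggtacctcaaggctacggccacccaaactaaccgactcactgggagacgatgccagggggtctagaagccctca
Cd22, chr7:30878979-30879278, minus strand: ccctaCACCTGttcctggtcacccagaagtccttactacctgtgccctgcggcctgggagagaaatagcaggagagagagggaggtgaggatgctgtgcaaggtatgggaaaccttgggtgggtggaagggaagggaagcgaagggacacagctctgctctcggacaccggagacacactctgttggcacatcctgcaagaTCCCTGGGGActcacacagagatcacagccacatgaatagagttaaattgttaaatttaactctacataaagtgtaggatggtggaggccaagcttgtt
Cr2, chr1:195176670-195176969, minus strand: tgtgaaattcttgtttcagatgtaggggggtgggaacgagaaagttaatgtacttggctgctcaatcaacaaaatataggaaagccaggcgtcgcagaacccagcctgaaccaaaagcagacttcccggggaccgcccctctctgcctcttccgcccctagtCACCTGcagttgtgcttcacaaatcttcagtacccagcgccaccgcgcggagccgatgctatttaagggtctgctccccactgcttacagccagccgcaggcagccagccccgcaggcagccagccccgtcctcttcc
The Cd79a window held CAGGTG and GAGGAA (as its complement TTCCTC), the Cd22 window the Ebf1 palindrome and CAGGTG (as CACCTG), and the Cr2 window CAGGTG (as CACCTG). None of these matches overlapped another. The Cd22 window lies inside the gene as the file gives it, at a start site downstream of its first exon. Of all 32851 promoters in the table, 0.904% held the Ebf1 palindrome, 1.74% the octamer, 28.3% GAGGAA and 20.2% CAGGTG, so the last 2 are common. The Pax5 window (chr4:44710645-44710944) held none of the 4 motifs, and neither did 2 of the 3 windows listed for Fcer2a. These are matches of letters in short windows. Factor binding was not measured.

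Total counts ran from 11164284 to 14602253 per library. Ttr, the transthyretin gene that defines choroid plexus epithelium, took 13.5% to 20.2% of them. Fas was not lower in MRL/lpr: its mean was 2.84 ± 1.58 CPM (reads of the gene scaled to library size; SD, n = 6) against 1.33 ± 0.24 (n = 3) at 12 weeks and 3.01 ± 1.31 against 2.24 ± 0.35 at 16 weeks, and neither difference passed (edgeR quasi-likelihood test, Benjamini-Hochberg adjusted p = 0.18 and 0.53). A count summed over all exons of Fas does not check an insertion in an intron. In 4 libraries, transcripts of neighbouring tissue were high: pineal genes summed to 71.2 and 64.1 CPM in replicates 1 and 4 of MRL/lpr at 12 weeks (1.94 to 14.9 in the other 16 libraries), cerebellar genes to 321 CPM in replicate 1 of MRL/+ at 12 weeks (7.79 to 173 in the others), and skeletal muscle genes to 616 CPM in replicate 1 of MRL/+ at 16 weeks (3.69 to 61.6 in the others). The cerebellar sum was next highest in replicate 1 of MRL/lpr at 16 weeks (173 CPM), replicate 2 at 12 weeks (155) and replicate 2 at 16 weeks (113), and leaving out any 1 of these did not change which members were called at that age. Counts of members called are therefore given with and without these 4 libraries.

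In MRL/+ the B cell genes were nearly silent. All 9 together gave 6 to 10 reads per library, or 0.381 to 0.789 CPM. In MRL/lpr they gave 327 to 1924 reads at 12 weeks (26.5 to 131 CPM, median 45.7) and 96 to 2926 at 16 weeks (7.87 to 189 CPM, median 64.6). The lowest MRL/lpr library thus held 96 reads where the highest control held 10. In bulk tissue, fewer cells of a type and less RNA per cell cannot be told apart.

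The threshold for a call was an adjusted p of 0.05. Of the 9 genes, 8 passed the filter on low counts, each through its MRL/lpr libraries, so that the number called is tied to the filter and is given as a description only. At 12 weeks Ms4a1, Cd79a, Cd79b, Cd22, Pax5, Blk and Ly6d, 7 genes, were called higher in MRL/lpr, where 5.01% of all 16598 genes tested were called higher. The same 7 genes were called higher at 16 weeks, where 8.49% of all genes were. Cr2 was tested and not called at either age, and Fcer2a had too few reads to enter the fit. Without the 4 libraries set apart for pineal, cerebellar or muscle transcripts, 0 of these genes were called at 12 weeks. That left 4 MRL/lpr against 2 MRL/+ libraries, with 34 genes called in all, against 1055. At 16 weeks 4 were called (Ms4a1, Cd79b, Cd22 and Ly6d), with 503 genes in all, against 1849. The fold changes stayed of similar size without the 4 libraries. The log2 fold change of Cd79a was 6.49 against 5.89 at 12 weeks and 5.93 against 5.68 at 16 weeks.

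**Figure D1:**
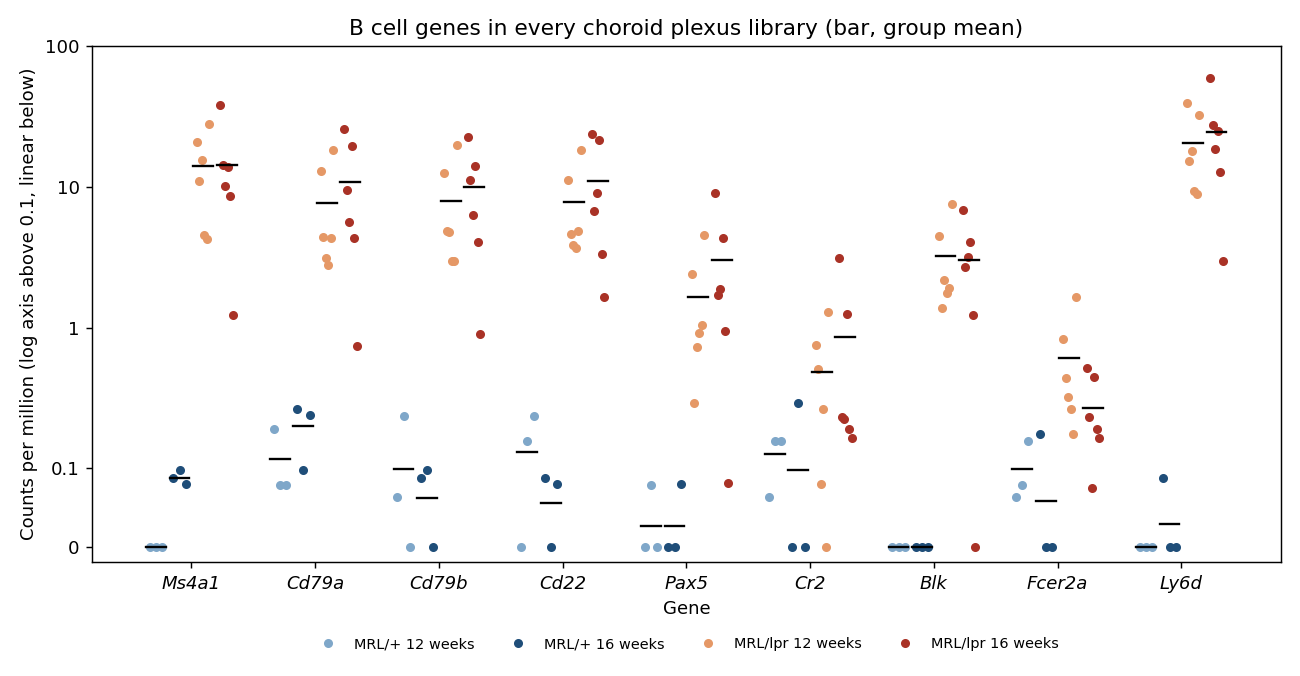
Level of each gene in every library, in CPM on an axis that is logarithmic above 0.1 and linear below; each point is 1 library and each bar a group mean. The MRL/+ libraries lie at or near 0 for all 9 genes, and Cr2 and Fcer2a are the genes whose MRL/lpr points come closest to them.

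Every MRL/lpr library held more of both signalling chains of the receptor than any control. Cd79a (GRCm38 chromosome 7, 24897381 to 24902197) was at 2.76 CPM in the lowest MRL/lpr library at 12 weeks, 4.39 at the median and 18.4 in the highest. At 16 weeks it ran from 0.737 through a median of 7.56 to 25.5 CPM. The MRL/+ libraries gave 3, 1 and 1 reads at 12 weeks and 3, 1 and 3 at 16 weeks. The groups did not overlap at either age, but the lowest MRL/lpr library at 16 weeks, with 9 reads, came within a few reads of the controls. The ratio of mean CPM was 66.0 at 12 weeks (adjusted p = 0.0074; log2 fold change 5.89 with an SE of 1.20) and 54.4 at 16 weeks (adjusted p = 0.0051; log2 fold change 5.68). The call at 12 weeks ended when any 1 control was left out (highest adjusted p 0.055); the call at 16 weeks did not (highest 0.039).

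Cd79b (chromosome 11, 106311341 to 106314762), the partner of Cd79a, ran from 2.96 through 4.81 to 19.8 CPM at 12 weeks and from 0.901 through 8.79 to 22.7 CPM at 16 weeks. The controls gave 1, 3 and 0 reads at 12 weeks and 1, 1 and 0 at 16 weeks. It was 80.1-fold higher by the ratio of mean CPM at 12 weeks (adjusted p = 0.0059). At 16 weeks the ratio of pooled counts, scaled for depth, was 181 (95% counting interval 50.02 to 1499; adjusted p = 0.0031). At 12 weeks the call ended without MRL/+ replicate 1 (adjusted p = 0.056). Within MRL/lpr the log2 ratio of Cd79b to Cd79a was 0.06 ± 0.37 (SD, n = 6) at 12 weeks and -0.01 ± 0.29 at 16 weeks, and the correlation of the pair over the 12 libraries, each centred on its age group, was 0.976. In single libraries the log2 ratio ran from -0.55 to 0.59 at 12 weeks and from -0.47 to 0.28 at 16 weeks, so the pair of chains stayed within 2-fold of each other in reads.

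Blk (chromosome 14, 63372837 to 63417187), the Src-family kinase, was at 0 in all 6 MRL/+ libraries. It ran from 1.38 through 2.05 to 7.58 CPM in MRL/lpr at 12 weeks, and from 0 through 2.94 to 6.84 CPM at 16 weeks. The library at 0, replicate 6 at 16 weeks, overlapped the controls, and the other 5 lay above them. Against a floor of 3 reads over the pooled controls (0.0727 CPM at 12 weeks and 0.0877 CPM at 16 weeks), Blk was at least 44.3-fold higher at 12 weeks (adjusted p = 0.017) and at least 34.2-fold higher at 16 weeks (adjusted p = 0.015). Its call ended when any 1 of the 3 controls was left out, at either age (highest adjusted p 0.080 and 0.067), and at 16 weeks also when the fit held only the groups compared (adjusted p = 0.057).

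Cd22 (chromosome 7, 30865402 to 30880342), the inhibitory lectin, ran from 3.68 through 4.76 to 18.2 CPM at 12 weeks and from 1.64 through 7.86 to 23.8 CPM at 16 weeks. Controls gave 0, 2 and 3 reads at 12 weeks and 1, 0 and 1 at 16 weeks, and did not overlap MRL/lpr at either age. The ratio of mean CPM was 59.3 at 12 weeks (adjusted p = 0.0054), and the ratio of pooled counts was 202 at 16 weeks (95% counting interval 55.7 to 1669; adjusted p = 0.0023). At 12 weeks the call ended without MRL/+ replicate 1 (adjusted p = 0.052). The annotation places a short model, Gm29439, across 479 bases of Cd22 exons on the other strand, and it was at 0 in every library.

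Cr2 (chromosome 1, 195136811 to 195176716), the complement receptor of mature B cells and follicular dendritic cells, was the member that separated the strains least among those tested. It gave 9, 7, 1, 4, 0 and 19 reads in MRL/lpr replicates 1 to 6 at 12 weeks, and 48, 3, 3, 17, 2 and 2 at 16 weeks. The controls gave 1, 2 and 2 reads and then 0, 3 and 0. Only 4 of 6 MRL/lpr libraries at 12 weeks and 2 of 6 at 16 weeks lay above all controls in CPM. The ratio of mean CPM was 3.84 at 12 weeks (log2 fold change 1.92, 95% interval -0.82 to 4.66; adjusted p = 0.42). The ratio of pooled counts was 10.96 at 16 weeks (95% counting interval 3.61 to 54.3; adjusted p = 0.15), and replicate 1 supplied 48 of the 75 reads behind it. Neither passed, and the upper bounds of the 95% intervals of the fit were 4.66 and 6.11 on the log2 scale.

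Pax5 (chromosome 4, 44524757 to 44710487), the lineage transcription factor, ran from 0.290 through 0.983 to 4.51 CPM at 12 weeks and from 0.0819 through 1.79 to 9.04 CPM at 16 weeks. Controls held 1 read in all at each age. The lowest MRL/lpr library at 16 weeks also held 1 read (0.0819 CPM), which put it above the control with 1 read (0.0798 CPM) through its smaller depth alone. The ratio of pooled counts was 69.5 at 12 weeks (95% counting interval 12.3 to 2765; adjusted p = 0.041) and 113 at 16 weeks (20.0 to 4467; adjusted p = 0.016). At 12 weeks the call ended without replicate 1 or 6 of MRL/lpr, when any 1 control was left out, with total-count or epithelium-based scaling and with no filter (adjusted p from 0.051 to 0.17). At 16 weeks it ended when any 1 control was left out (highest adjusted p 0.083).

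Ms4a1 (chromosome 19, 11249675 to 11266241) was at 0 in the 3 MRL/+ libraries at 12 weeks and at 1 read in each at 16 weeks. MRL/lpr ran from 4.27 through 13.3 to 27.7 CPM at 12 weeks and from 1.23 through 12.0 to 38.1 CPM at 16 weeks. The groups did not overlap. Ms4a1 was at least 192-fold higher at 12 weeks (adjusted p = 0.0030), and the ratio of pooled counts was 175 at 16 weeks (95% counting interval 59.9 to 852; adjusted p = 0.0030).

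Ly6d (chromosome 15, 74762056 to 74763620) gave the most reads of the 9 genes. The controls held 1 read in all, in replicate 1 at 16 weeks, whereas MRL/lpr ran from 8.88 through 16.6 to 39.3 CPM at 12 weeks and from 2.95 through 21.7 to 59.3 CPM at 16 weeks. Ly6d was at least 282-fold higher at 12 weeks (adjusted p = 0.0021), and the ratio of pooled counts was 889 at 16 weeks (95% counting interval 159 to 35131; adjusted p = 0.0016). Ly6d and Ms4a1 remained called at both ages whichever 1 library was left out. Ly6d also marks stratified epithelium, whose keratin genes Krt5, Krt14, Krt13 and Krt4 and desmoglein gene Dsg3 held 0 to 2 reads per group in every group. Other genes of that list passed the filter. Krt15 and Trp63 had positive log2 fold changes (1.08 and 0.71 at 12 weeks, 1.54 and 1.31 at 16 weeks). Sfn had negative ones (-0.42 and -0.37), and none of these was called (adjusted p 0.27 to 0.54). The part of epithelium in the Ly6d reads was not tested. The 11 epithelial markers summed to 147 to 200 CPM in MRL/lpr and 162 to 211 in MRL/+ at 12 weeks, and to 115 to 204 against 211 to 282 at 16 weeks, nearly all from Perp, a desmosome-associated gene that fell at 16 weeks (149 ± 30 against 237 ± 37 CPM, adjusted p = 0.012).

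Fcer2a (chromosome 8, 3681737 to 3694175) was scarce everywhere. It gave 10, 6, 4, 4, 2 and 24 reads in MRL/lpr at 12 weeks and 8, 3, 1, 6, 2 and 2 at 16 weeks, against 1, 1 and 2 and then 2, 0 and 0 in MRL/+. All 6 MRL/lpr libraries lay above the controls at 12 weeks and 4 of 6 at 16 weeks. The ratio of mean CPM was 6.14 at 12 weeks, and the ratio of pooled counts was 4.82 at 16 weeks (95% counting interval 1.19 to 42.3). Neither passed an exact two-sided permutation test of CPM (p = 0.11 and 0.095; 0.16 and 0.16 adjusted over 3 tests; the smallest p that 84 splits allow is 0.012), nor the edgeR fit without a filter (adjusted p = 0.15 and 0.31).

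Where 8.59% of all genes tested had every MRL/lpr library above every control at 12 weeks and 9.91% at 16 weeks, 7 of the 8 members tested did at 12 weeks (all but Cr2) and 6 at 16 weeks (all but Blk and Cr2). The 8 members passed the filter through their MRL/lpr libraries, so these counts too are tied to it and are a description only. Fcer2a, outside the genes tested, also had every MRL/lpr library above every control at 12 weeks, through depth alone. Its lowest MRL/lpr library and highest control both held 2 reads (0.174 and 0.157 CPM).

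Compared per length, as RPKM (CPM divided by the exon length in kilobases), Ly6d led the members with 27.6 ± 16.8 RPKM (SD, n = 6) in MRL/lpr at 12 weeks and 32.7 ± 25.9 at 16 weeks, which made 64.3 ± 6.5% and 63.3 ± 6.6% of the summed RPKM of the 9 genes. It was above the next gene in every one of the 12 libraries. Cd79b and Cd79a followed with 5.57 ± 4.75 and 5.25 ± 4.42 RPKM at 12 weeks, and 6.92 ± 5.52 and 7.47 ± 6.62 at 16 weeks. They changed places between ages. Cd79b was above Cd79a in 4 of 6 libraries at 12 weeks, and Cd79a above Cd79b in 3 of 6 at 16 weeks. Next by mean were Ms4a1 (2.26 ± 1.499 and 2.32 ± 2.03), Cd22 (1.54 ± 1.161 and 2.18 ± 1.87) and Blk (1.302 ± 0.972 and 1.21 ± 0.96). Within libraries, Cd79a was above Ms4a1 in 5 of 6 at 12 weeks and Cd79b above Ms4a1 in 6 of 6 at 16 weeks. Ms4a1 was above Cd22 in 5 of 6 and 3 of 6, and Cd22 above Blk in 5 of 6 and 6 of 6. The lowest means were those of Fcer2a (0.198 ± 0.179 and 0.0873 ± 0.0556), Pax5 (0.187 ± 0.178 and 0.339 ± 0.371) and Cr2 (0.0596 ± 0.0599 and 0.106 ± 0.145). Blk exceeded the next gene in 6 of 6 libraries at 12 weeks and 5 of 6 at 16 weeks. Of all these steps, the gap between neighbouring means was larger than the sum of their SDs only for Ly6d at 12 weeks. These SDs hold variation between libraries that the genes share, so they do not judge the order within libraries.

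No tested member was called between 16 and 12 weeks in MRL/lpr, a comparison in which 6 of 16598 genes were called (0.0361%; 1117 at an unadjusted p under 0.05). The log2 difference, 16 minus 12 weeks, was 0.04 for Ms4a1 (95% interval -1.21 to 1.29), 0.51 for Cd79a (-0.80 to 1.82), 0.51 for Cd22 (-0.72 to 1.73), 0.87 for Pax5 (-0.68 to 2.41) and -0.09 for Blk (-1.63 to 1.44). For Ms4a1 and Blk the intervals hold changes of more than 2-fold in either direction. Fcer2a went the other way from most members, with 0.611 ± 0.554 CPM at 12 weeks and 0.270 ± 0.172 at 16 weeks, a difference within the spread (exact permutation p = 0.17). In MRL/+ no gene was called between ages by edgeR (2173 genes at an unadjusted p under 0.05; DESeq2 called 12 and voom 1724, none of them a member). Whether the strain difference itself changed with age was tested by the interaction term, which called 0 genes (2286 at an unadjusted p under 0.05, and 0 by DESeq2 and by voom). Large differences stay within its 95% intervals, which were derived from the test statistic and are approximate. The log2 term was -0.21 for Cd79a (-3.31 to 2.90, the narrowest of the members), -3.29 for Ms4a1 (-9.62 to 3.03) and 0.69 for Pax5 (-7.63 to 9.01). Ms4a1 had 0 reads in the controls at 12 weeks, so the size of its term depends on the small count that edgeR adds. For Blk, with no read in any control, the term could not be estimated.

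What did vary was the library. At 12 weeks replicate 6 was highest for 8 of the 9 genes and replicate 1 second, the order being reversed only for Ly6d. At 16 weeks replicate 1 was highest for all 9 genes, replicate 4 second for 7 of them, and replicate 6 lowest for 8, the exception being Fcer2a. From the lowest to the highest library at 16 weeks, Ms4a1 differed 31.0-fold and Cd79a 34.6-fold, against 6.50-fold and 6.66-fold at 12 weeks. Summed over the 9 genes, replicate 6 at 16 weeks gave 7.87 CPM and replicate 1 gave 189.

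**Figure D2:**
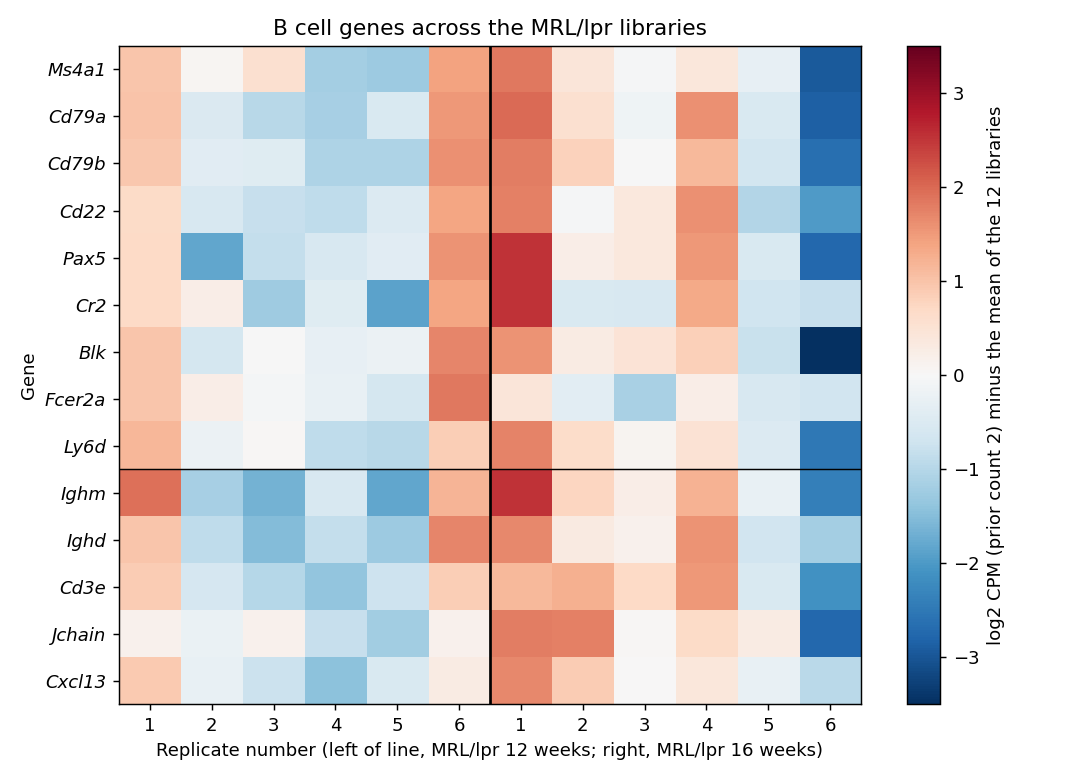
Each MRL/lpr library (columns, by replicate number) against each gene (rows), coloured by log2 CPM minus the mean over the 12 libraries. The 9 B cell genes are high and low in much the same libraries, at 16 weeks highest in replicate 1 and, for all but Fcer2a, lowest in replicate 6; immunoglobulin genes, Cd3e of T cells, Jchain of plasma cells and Cxcl13 follow below the line.

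Across the 12 MRL/lpr libraries, with each age group centred on its own mean, the 28 pairs among the 8 members that passed the filter had Pearson correlations of 0.626 to 0.978 with a median of 0.911. Without the lowest library of each age (replicate 5 at 12 weeks and replicate 6 at 16 weeks) the median was 0.886. Ms4a1 and Ly6d were the closest pair (0.978) and Blk and Cr2 the loosest (0.626). The points share their libraries and sequencing depth. Among 13331 other genes, the 8 whose log2 CPM was most like the members' mean included Bank1 (r = 0.986, n = 12), Syk (0.984), Ikzf3 (0.983), Mcm3 (0.983), Fcrl1 (0.981), H2-Ob (0.979) and Tnfsf8 (0.977). Of these 8, 2 were also among the 8 nearest within the 12-week libraries alone and 4 within the 16-week libraries.

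Levels relative to Cd79a were compared between ages for 13 genes with an exact two-sided permutation test over all splits of the 12 MRL/lpr libraries into 6 and 6, which cannot give a p below 0.0022. None passed after adjustment. The log2 ratio of Blk to Cd79a was -1.13 ± 0.46 (SD, n = 6) at 12 weeks and -2.13 ± 1.14 at 16 weeks (difference -1.01, exact permutation p = 0.045, adjusted p = 0.39). It passed only without replicate 3 at 16 weeks (adjusted p = 0.028). Replicate 6 at 16 weeks, with no Blk read, had a ratio of -4.25 that is set by the 0.5 added to each count, and without it the difference was -0.59 (adjusted p = 0.36). The ratio of Fcer2a to Cd79a was -3.55 ± 0.47 and -4.64 ± 1.42 (exact permutation p = 0.11, adjusted p = 0.39), and no library at 16 weeks held more than 8 reads of Fcer2a. Replicate 6 at 16 weeks, with few reads of both genes, was the highest at -1.93. With 1 library left out, the difference ran from -1.63 to -0.89 and never passed (same test, adjusted p 0.084 to 0.64). The ratio of Cr2 to Cd79a was -4.24 ± 1.33 and -3.78 ± 1.14 (exact permutation test, adjusted p = 0.75). Its lowest value, -6.66 in replicate 5 at 12 weeks, had no Cr2 read and is set by the 0.5 added. The differences for Ms4a1, Cd79b, Cd22, Pax5 and Ly6d were -0.40, -0.06, 0.03, 0.22 and -0.20.

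**Figure D3:**
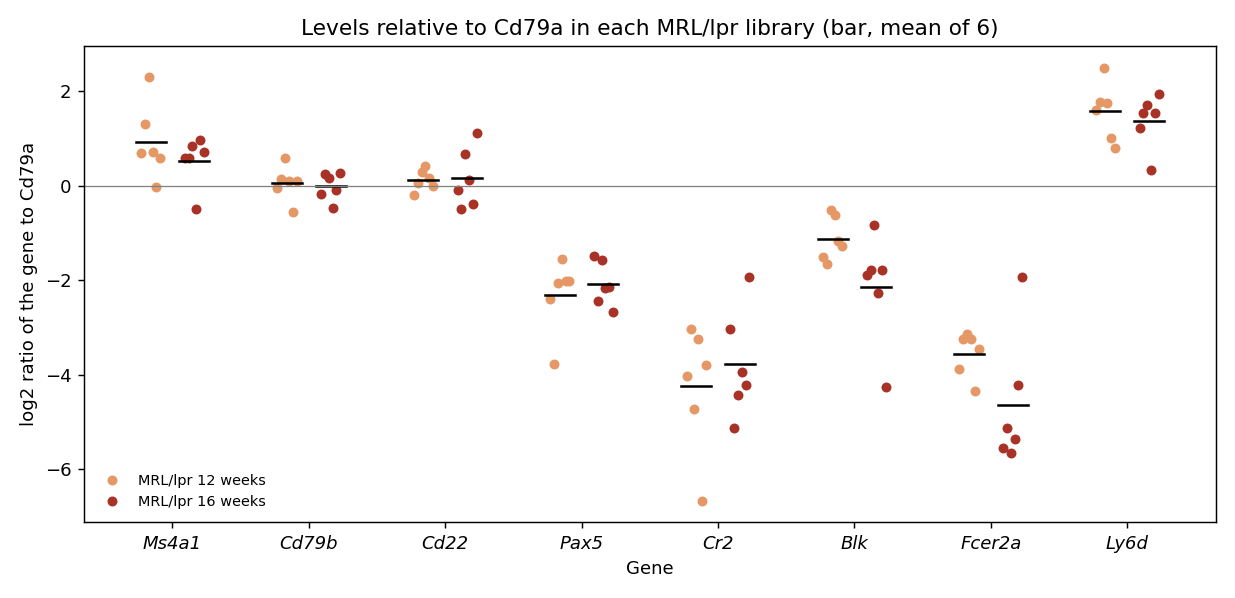
Log2 ratio of each gene to Cd79a, with 0.5 added to each count, in every MRL/lpr library; orange points are 12 weeks, red points 16 weeks, and bars are means of 6. Cd79b and Cd22 lie near 0, whereas Blk, Pax5, Fcer2a and Cr2 lie below it in their means at both ages.

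T cell, plasma cell and follicular chemokine transcripts moved with the B cell genes to different degrees. Relations of log2 CPM with Cd79a were computed for 5 genes within the 6 libraries of each age, 10 in all. Cd3e, which encodes part of the signalling complex of T cells, followed Cd79a at 12 weeks (Pearson r = 0.985, Spearman rho = 0.943, exact permutation p = 0.0042 and 0.017, adjusted 0.014 and 0.033) and at 16 weeks (r = 0.941, rho = 0.829, p = 0.0056 and 0.058, adjusted 0.014 and 0.083). Without the 2 libraries farthest from the median of Cd79a its r was 0.964 and 0.864. Cxcl13, which attracts B cells to follicles through Cxcr5, gave r = 0.883 and 0.887 (rho = 0.943 at both ages; exact permutation p = 0.018 and 0.024, both 0.030 adjusted), and 0.916 and 0.624 without those 2 libraries.

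Ighm gave r = 0.852 at 12 weeks and 0.982 at 16 weeks (rho = 0.543 and 1; exact permutation p of r = 0.060 and 0.0014, adjusted 0.066 and 0.0069), but at 12 weeks r was -0.54 without the 2 farthest libraries, replicates 6 and 1. Jchain, the joining chain of secreted antibody made by plasma cells, had the lowest r of the relations at 12 weeks over all 6 libraries: r = 0.542 at 12 weeks (exact permutation p = 0.25) and 0.912 at 16 weeks (p = 0.021, 0.030 adjusted), falling to 0.427 without replicates 6 and 1. In levels, Jchain was at 546 ± 190 CPM (SD, n = 6) and 1144 ± 850 in MRL/lpr, and at 2.12 ± 2.11 and 2.45 ± 1.09 (n = 3) in MRL/+.

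**Figure D4:**
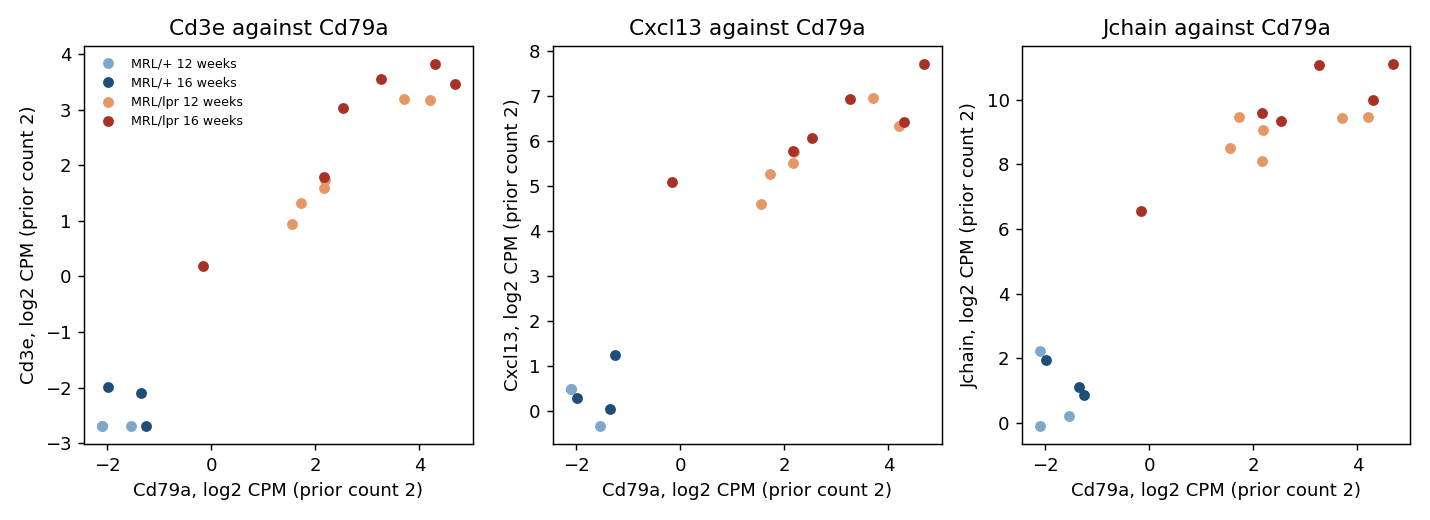
Log2 CPM of Cd3e, Cxcl13 and Jchain (vertical axes) against Cd79a (horizontal axes); each point is 1 of 18 libraries, coloured by group. The MRL/lpr libraries form a rising line for Cd3e and, with more scatter, for Cxcl13, whereas Jchain is flatter among the 12-week libraries, and all MRL/+ libraries sit at the lower left.

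Other genes of the receptor pathway and of B cell stages were read from lists, where rose means called higher. Of all genes tested, 5.01% were called higher at 12 weeks and 8.49% at 16 weeks. Of 18 other signalling genes, 10 rose at 12 weeks and 13 at 16 weeks, and none fell (median log2 fold change 2.41 and 3.14, against -0.01 and 0.03 over all genes). Vav1, an exchange factor downstream of the receptor, rose from 0.641 ± 0.160 to 10.7 ± 7.2 CPM at 12 weeks (adjusted p = 0.0055), and Pik3cd, the leukocyte PI3-kinase catalytic subunit, from 3.26 ± 1.17 to 12.4 ± 6.5 (adjusted p = 0.039). Many of these genes are also used by T cells and macrophages. Without the 4 libraries named above, 0 were called at 12 weeks and 3 at 16 weeks.

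Of 13 inhibitors of the receptor, 11 rose at 12 weeks and 12 at 16 weeks (medians 3.41 and 3.60), among them Btla, an inhibitory receptor of B and T cells (0.230 ± 0.213 against 7.70 ± 4.58 CPM at 12 weeks, adjusted p = 0.0045), and Lair1, a collagen receptor (0.960 ± 0.464 against 8.12 ± 4.005, adjusted p = 0.0026). Without the 4 libraries 0 and 7 were called. Of 15 transcription factors of the lineage, 6 rose at 12 weeks and 10 at 16 weeks (medians 1.86 and 2.92), and 0 and 3 were called without the 4 libraries. Ikzf3, the Aiolos gene of lymphocytes, went from 1 read over the controls to 7.18 ± 6.92 CPM at 12 weeks (adjusted p = 0.0048). Pou2af1, the co-activator of Oct proteins in B cells, went from 0.137 ± 0.128 to 10.98 ± 9.07 CPM (adjusted p = 0.0090).

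Of 21 other surface genes of mature B cells, 17 rose at 12 weeks and 18 at 16 weeks (medians 4.15 and 4.75), and 0 and 8 were called without the 4 libraries. Ighm, the membrane and secreted mu chain, averaged 100 ± 111 CPM in the 12-week MRL/lpr group, where its controls had 2.51 ± 0.20 (adjusted p = 0.012), and 153 ± 152 against 2.52 ± 0.60 at 16 weeks (adjusted p = 0.0057). Ighd, the delta chain of naive mature B cells, was called at 16 weeks (3.12 ± 2.45 against 0.165 ± 0.160 CPM, adjusted p = 0.031) and not at 12 weeks (2.26 ± 2.43 against 0.157 ± 0.136, adjusted p = 0.057). Ighm and Ighd lie among near-identical immunoglobulin segments, and the way reads with several alignments were counted is not given in the sources used here.

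Of 11 genes of B cell precursors, 7 were tested, and 1 rose at 12 weeks (Bst1) and 3 at 16 weeks (Myb, Bst1 and Flt3), all of them expressed by other blood cells too. The shares over all genes were 5.01% and 8.49%, and a single call in so short a list says little beside them. The recombinase genes Rag1 and Rag2, the terminal transferase gene Dntt and the surrogate light chain gene Vpreb2 held 0 to 7 reads per group in all 4 groups. Vpreb1, the other surrogate light chain gene, averaged 12.9 ± 2.4 CPM with the lpr allele and 12.97 ± 3.75 without it at 12 weeks (log2 fold change -0.0029, 95% interval -0.53 to 0.52; adjusted p = 0.996). At 16 weeks it was lower in MRL/lpr and not called (log2 fold change -0.60 with an SE of 0.24, adjusted p = 0.12).

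Of 9 genes of marginal zone and B-1 cells, 2 rose at each age (Spn and Zbtb32) and 1 fell at 16 weeks (Cd9, adjusted p = 0.038). At these ages 5.01% and 8.49% of all genes were called higher and 1.34% and 2.64% lower. Spn encodes CD43, which T cells carry as well. Of 9 germinal centre genes, 6 were tested, and Gcsam rose at both ages (1.23 ± 0.49 against 0.0946 ± 0.0281 CPM at 12 weeks, adjusted p = 0.013) and Nuggc at 16 weeks (adjusted p = 0.026). Without the 4 libraries no germinal centre gene was called at either age.

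Some markers of other cells differed with the strain as well, and their part in the values above was not tested. The counts below stand beside 5.01% and 8.49% of all genes called higher at 12 and 16 weeks, and 1.34% and 2.64% called lower. Lists with only 1 or 2 calls say little beside these shares. Of 18 T cell genes, 16 rose at 12 weeks and 18 at 16 weeks; they summed to 77.5 to 309 CPM and 48.7 to 380 CPM in MRL/lpr and to 5.11 to 6.75 CPM in MRL/+. Without the 4 libraries 3 and 16 T cell genes were called. Of 12 plasma cell genes, 7 rose at each age (1 and 4 without the 4 libraries); they summed to 574 to 1253 and 427 to 2906 CPM against 302 to 458 CPM. Of 10 genes of plasmacytoid dendritic cells, which share some lymphoid genes with B cells, 1 rose at 12 weeks (Ly6c2) and 4 at 16 weeks (Ly6c2, Runx2, Irf7 and Bst2). Siglech, their defining marker, was called at neither age (3.29 ± 1.01 and 3.04 ± 0.88 CPM against 1.73 ± 0.44 and 1.76 ± 0.15). Of 13 genes of follicular dendritic cells, which also carry Cr2, 2 rose at 12 weeks and 4 at 16 weeks, led by Cxcl13 (60.6 ± 35.5 against 1.05 ± 0.36 CPM at 12 weeks). The list as a whole hardly moved: its median log2 fold change was 0.10 and 0.11, and 8 and 7 of the 13 were positive. Of 11 genes of microglia and macrophages, which also use Syk, Lyn and Cd22-like inhibitory receptors, 6 and 8 rose. No oligodendrocyte, pituitary, pineal or cerebellar gene was called at either age, and 1 skeletal muscle gene, Mylpf, was lower at 16 weeks. At that age skeletal muscle genes summed to 616 CPM in MRL/+ replicate 1 and to 15.4 and 4.39 CPM in replicates 2 and 3. Of 9 gamma delta T cell genes, 5 were tested, and 2 rose at 12 weeks and 3 at 16 weeks. Of 7 heat shock and immediate early genes, which respond to tissue handling, 4 fell at 12 weeks and 3 at 16 weeks. Of 18 genes of choroid plexus epithelium, 0 and 4 fell.

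Among genes within 5000 bases of a member, 2 gave at least 222 reads in every library. Arhgef1 begins 715 bases after Cd79a on the same strand and gave 284 to 1304 reads per library, and Trappc5 ends 482 bases from Fcer2a on the other strand and gave 222 to 418. Neither shares an exon base with the member. Ffar1 lies 3838 bases from Cd22 on the same strand and shares no exon base with it. It held 0 to 25 reads per library, 98 over the MRL/lpr libraries and 1 over the controls. The part of either gene in the reads of the other was not tested. On the strand opposite Pax5, the models Gm12462 and 5730488B01Rik overlap 125 and 636 bases of its exons and held at most 5 and 1 reads in any library. Whether the counting used strand is not given in the sources used here.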

How the data were processed

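Each library came from choroid plexus RNA prepared with Illumina TruSeq RNA v2 chemistry and run over 2 lanes, per the labels. The deposited values are raw counts of reads per gene made by the authors, who used STAR 2.5.3a, featureCounts 1.26.0, GRCm38 and DESeq2 1.16.1, per the submitters' processing notes; the sources used here give no annotation release, strand setting or handling of reads with several alignments. Exon lengths are also the deposited ones. Counts were analysed here in edgeR 4.0.16 (R 4.3.3): filterByExpr by group left 16598 genes, libraries were scaled by TMM, and 1 robust quasi-likelihood fit over all 18 libraries gave 5 contrasts with Benjamini-Hochberg adjustment and a threshold of 0.05. Adjusted p-values beside levels and fold changes in the report are from this fit. DESeq2 1.42.0 and voom (limma 3.58.1) were alternatives. Folds are ratios of mean CPM, ratios of pooled counts with exact intervals where the controls held 1 to 3 reads, or bounds against a floor of 3 reads over the pooled controls where they held 0. These exact intervals and floors cover counting error only. Log2 CPM used a prior count of 2. The fit was tested on simulated data in which the genes given a change were expressed in the controls. That test does not cover genes whose controls held 0 or few reads, as the members' did. None of 36 pairs of libraries within groups held the same library (smallest chi-square per gene 5.61). The members, lists and tests were chosen with earlier results of these data known. Named genes are the members, a panel of 10, up to 4 genes per list with the smallest p, defining markers near 0, the genes most like the members and genes within 5000 bases. Syk, Lyn and list genes outside this rule were named as background. Some genes of the lists and of the panel are not reported here, though they count in the totals.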

Additional observations from a re-analysis of the deposited data

Results flagged for a closer look

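In groups of 6 libraries, 38 combinations of gene and group were examined for a library whose gap to its nearest neighbour, as a share of the group's range, passed Dixon's 95% critical value; chance alone passes about 1 in 20. Ms4a1 was at 38.1 CPM in MRL/lpr replicate 1 at 16 weeks, with the next library at 14.2. Cr2 was at 3.10 CPM in the same library, with the next at 1.25. That library was also the highest of its age for the other 7 members. Gh, the growth hormone gene of the pituitary, was at 10.1 CPM in MRL/lpr replicate 5 at 16 weeks, with the next library at 2.58. The members were not high in that library (35.5 CPM summed, where the group's median was 64.6).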

How the results depend on the processing

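Between ages in MRL/lpr, where no member was called, the sign of the log2 difference changed when 1 library was left out for Ms4a1 (-0.52 to 0.41), Cd79b (-0.10 to 0.88), Blk (-0.50 to 0.43) and Ly6d (-0.21 to 0.54), as did the ratios to Cd79a of Cd79b, Cd22, Pax5, Cr2 and Ly6d. At 12 weeks the number of members called was 7, and 2 to 7 when 1 library was left out (2 without MRL/+ replicate 1, 4 without MRL/+ replicate 2 or 3). At 16 weeks it was 7, and 5 to 7. Without the 4 libraries set apart for pineal, cerebellar or muscle transcripts, an alternative chosen after seeing the data, 0 and 4 were called. Of 13 ratios to Cd79a, 0 passed between ages, and 0 to 1 when 1 library was left out. Members called between ages or in the interaction were 0 in each alternative run. The labels do not state that the replicate numbers pair the samples, and the main fit used no block. The correlation of same-numbered libraries' deviations ran from -0.62 to 0.45, which does not settle whether the numbers mark a shared litter or day. With the replicate block, 5 members were called at 12 weeks (Blk, adjusted p = 0.060, and Pax5, 0.084, not called) and 6 at 16 weeks (Blk, 0.056, not called); genes called in all were 1092 and 1424, against 1055 and 1849. Genes called in all at 12 weeks were 535 with epithelium-based scaling, 1665 with DESeq2 and 3490 with voom, and at 16 weeks 4849 with voom. Between ages in MRL/lpr DESeq2 called 84 genes and voom 21. Genes called lower ranged from 45 to 1910 at 12 weeks and from 41 to 2448 at 16 weeks over scalings, filters and tools, against 223 and 439. Scaling to total counts or to epithelial genes brought the median over all genes at 16 weeks from 0.03 to 0.28 and 0.51 (log2); the 7 members called there kept their direction. The cause of these shifts was not tested. Cr2 and Fcer2a rest on 40 and 50 reads over the 6 MRL/lpr libraries at 12 weeks and on 75 and 22 at 16 weeks; the part of depth and of the spread between libraries in their missing calls was not tested.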
